A study of Rattus norvegicus with 3 samples.

Results

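The genes described here encode 7 subunits of the GABA-A receptor: the alpha subunits Gabra2, Gabra3, Gabra4 and Gabra5, the beta subunits Gabrb1 and Gabrb2, and the gamma subunit Gabrg1. They were picked by gene symbol as subunits other than the cerebellar granule cell subunits Gabra6 and Gabrd, and all 7 were found among the 14217 genes named on the array. They were read in rat brainstem on 3 Affymetrix expression arrays, 1 labelled Sham, 1 TBI (traumatic brain injury) and 1 Hand Acu (hand acupuncture), all taken 1 h after modelling. The labels name a TBI-damaged cortex, collected beside the brainstem, and do not say whether the rats of the Hand Acu array were also injured or where needles were placed. They give no strain, sex or age. Brainstem tissue of 5 rats was mixed, taken here to mean 1 pool for each group, and 6 µg of total RNA was labelled. Each group having 1 array, the differences carry no error and could not be tested, and the number of arrays limits their precision.

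GABA-A receptors are chloride channels opened by GABA, the main inhibitory transmitter of the brain, and each is a ring of subunits drawn from several families. The alpha subunit largely sets where a receptor sits and how it answers to drugs, GABA binds between a beta and an alpha subunit, and benzodiazepines bind between an alpha and a gamma subunit. In the hindbrain, granule cells of the cerebellum are known for receptors with the alpha subunit of Gabra6 and, outside synapses, the delta subunit of Gabrd. The genes described here are used mainly by other neurons, and some of them by glia, although Gabrb2 is known to be made by granule cells as well, so the name of the group is not a strict division of cell types.

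The values are log2 MAS5 signals, in which a difference of 1 is a doubling. A gene was read from its brightest probe set, and a gene was counted as above the floor if its mean log2 signal over the 3 arrays reached 7.44, the median of all probe sets that are not controls. Of the 14217 genes 9241 did, and 6 of the 7 subunits. Gabra3, with a mean of 7.44, lay 0.0001 under the floor, and is described beside the others. Gabrb2 had 2 probe sets and the other 6 genes had 1 each, so for those 6 no second reading of the same transcript could be had. Signals of different probe sets are not set against each other, since probes differ in brightness. Of the general quality measures, the ratio of 3' to 5' signal of beta-actin, which reflects how intact the RNA was, came to 5.58 for Sham, 6.37 for TBI and 6.69 for Hand Acu. That of Gapdh was 1.25 for Sham and 1.28 for Hand Acu, with TBI below both. Its part in the differences between arrays was not tested.

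The beta subunits were the steadiest of the group. Gabrb2 encodes the beta subunit of the most widespread receptor of the adult brain. Its brighter probe set (1377773_at) gave a log2 signal of 12.16 for Sham, 12.16 for TBI and 12.20 for Hand Acu, so that its whole range was 0.05. Its other probe set (1369818_at) lay below the floor and read 7.27, 7.07 and 7.15, with the highest value on the Sham array and not on the Hand Acu array. TBI minus Sham was −0.0069 in the first probe set and −0.19 in the second. Hand Acu minus Sham was 0.04 in the first and −0.11 in the second, so there the 2 probe sets pointed opposite ways. Gabrb1 encodes the beta subunit whose gene stands beside several alpha and gamma genes. Its log2 signal was 11.41 for Sham, 11.42 for TBI and 11.29 for Hand Acu. The Sham and TBI arrays were within 0.0091 of each other for Gabrb1, and the Hand Acu array was the lowest, by 0.13 against TBI. In its decile 20.0% of genes were at least as far apart between Hand Acu and TBI. That was the smallest such share among the 7 genes in that comparison, so Gabrb1 was not steady beside genes of like signal.

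Reference sequence before the start sites of both beta genes is shown because these had the smallest ranges of the group and share a stretch of letters. It comes from RefSeq on assembly GRCr8, runs 5′ to 3′ on the gene's strand, and covers the 250 bases before the start site. The Gabrb1 stretch is chr14:36902894-36903143 on the minus strand and the Gabrb2 stretch is chr10:27439543-27439792 on the plus strand. Capitals mark GCGCATGCGC, the palindromic core bound by the factor NRF-1.
Gabrb1: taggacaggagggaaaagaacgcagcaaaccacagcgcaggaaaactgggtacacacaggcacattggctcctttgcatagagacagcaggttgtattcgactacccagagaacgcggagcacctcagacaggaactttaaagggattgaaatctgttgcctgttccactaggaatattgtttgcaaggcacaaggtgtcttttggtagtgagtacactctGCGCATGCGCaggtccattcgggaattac
Gabrb2: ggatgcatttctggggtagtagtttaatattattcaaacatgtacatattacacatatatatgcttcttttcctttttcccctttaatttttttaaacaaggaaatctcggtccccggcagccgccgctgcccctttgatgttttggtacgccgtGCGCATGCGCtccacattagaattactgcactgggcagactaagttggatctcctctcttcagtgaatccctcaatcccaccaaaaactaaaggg
The core occurs once in each, 29 bases before the start of Gabrb1 and 95 bases before that of Gabrb2, counted to its first base. With the T before it, it is the longest run of letters that the 2 stretches share, at 11 bases. The core was picked as the longest palindrome within that shared run, so its presence in both was given by the choice. It was found in 255 of 33469 stretches of the same length in that table (0.762%). Because of how the core was picked, this share does not measure how unusual the match of the 2 genes is. Of the 7 genes 6 had an entry, Gabra2 being the one without, and the core was in no other of the 6. The search was made after the sequences had been seen, and a match is a description of letters, not of binding.

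Gabrg1, Gabra2 and Gabra5 were lowest on the Sham array and higher on both others. Gabrg1 encodes a gamma subunit of restricted distribution, which is also found in the Bergmann glia of the cerebellum. Its log2 signal (1387706_at) was 9.11 for Sham, 9.46 for TBI and 9.27 for Hand Acu. The TBI array was thus the highest for Gabrg1, by 0.34 or 1.27-fold over Sham, and the Hand Acu array lay between the others, 0.15 above Sham. Of all genes above the floor 8.67% were at least as far apart as Gabrg1 between TBI and Sham, in either direction. Gabra2 encodes an alpha subunit of synapses, which in mice carries much of the anxiety-relieving action of benzodiazepines. Its signal (1397614_at) was 8.94, 9.21 and 9.10 in the same order of arrays. Gabra2 followed the same order as Gabrg1, with TBI highest, by 0.27 or 1.21-fold over Sham, and Hand Acu 0.16 over Sham.

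Gabra5 encodes an alpha subunit found mostly outside synapses, where it carries tonic inhibition, and is best known from the hippocampus. Its log2 signal (1371057_at) was 10.15 for Sham, 10.41 for TBI and 10.53 for Hand Acu. In Gabra5 it was the Hand Acu array that was highest, by 0.38 or 1.31-fold over Sham and by 0.12 over TBI. Genes of like signal varied less than those near the floor: in the decile of mean signal that holds Gabra5 the SD of Hand Acu minus Sham was 0.15, and 2.06% of its 924 genes were at least as far apart. For TBI minus Sham the difference of Gabra5 was 0.27, a size reached by 5.84% of genes in that decile. Among the 7 genes these were the smallest such shares in the comparisons with Sham.

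The stretches before the start sites of Gabrg1 and Gabra5 are shown because both genes were higher on the TBI and Hand Acu arrays than on the Sham array. The Gabrg1 stretch is chr14:37750042-37750291 on the plus strand and the Gabra5 stretch is chr1:117516607-117516856 on the minus strand, both of GRCr8. Capitals mark CCAAT, read here on the opposite strand as ATTGG, in Gabrg1 and the GC box GGGCGG, read as CCGCCC, in Gabra5.
Gabrg1: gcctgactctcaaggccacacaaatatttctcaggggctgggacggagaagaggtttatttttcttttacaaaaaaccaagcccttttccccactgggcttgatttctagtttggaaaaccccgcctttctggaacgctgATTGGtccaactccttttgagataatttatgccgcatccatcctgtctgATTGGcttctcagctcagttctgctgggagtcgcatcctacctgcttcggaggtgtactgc
Gabra5: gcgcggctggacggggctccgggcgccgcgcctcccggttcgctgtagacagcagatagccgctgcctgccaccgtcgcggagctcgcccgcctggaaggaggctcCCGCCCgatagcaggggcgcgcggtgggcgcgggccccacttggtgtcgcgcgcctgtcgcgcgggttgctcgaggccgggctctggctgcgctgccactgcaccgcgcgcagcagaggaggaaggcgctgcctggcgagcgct
The 2 stretches differ in make-up, with 48.4% G and C before Gabrg1 and 76.4% before Gabra5. Gabrg1 holds CCAAT 2 times, a motif found at least once in 34.0% of all promoters of the table, and Gabra5 holds GGGCGG once, found in 30.5%, both strands being searched. Neither motif is in both stretches, and elsewhere in the group CCAAT is before Gabra3 and Gabrb1 and GGGCGG before Gabra4. The cAMP response element TGACGTCA and the E-box CACGTG were in none of the 6 stretches searched, and in 1.59% and 5.59% of all promoters. TATAAA was before Gabra3 alone among the 6, and in 12.9% of all promoters.

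Gabra4 and Gabra3 did not follow that order of arrays. Gabra4 encodes an alpha subunit that pairs with the delta subunit outside synapses, as in the thalamus, and gives receptors that diazepam does not act on. Its log2 signal (1369905_at) was 8.60 for Sham, 8.53 for TBI and 8.75 for Hand Acu. The TBI array was lowest for Gabra4 and the Hand Acu array highest, 0.22 or 1.16-fold above TBI. Gabra3 encodes an alpha subunit known from monoamine neurons of the brainstem and from the reticular thalamus. Its signal (1369844_at) was 7.70 for Sham, 7.35 for TBI and 7.27 for Hand Acu. Gabra3 was the one subunit that was highest on the Sham array, by 0.34 over TBI and by 0.43, or 1.35-fold, over Hand Acu. Its probe set was also the one nearest to the floor, where single values vary most: in the lowest decile above the floor the SD of Hand Acu minus Sham over genes was 0.30, and 14.4% of its genes were at least as far apart.

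**Figure D1:**
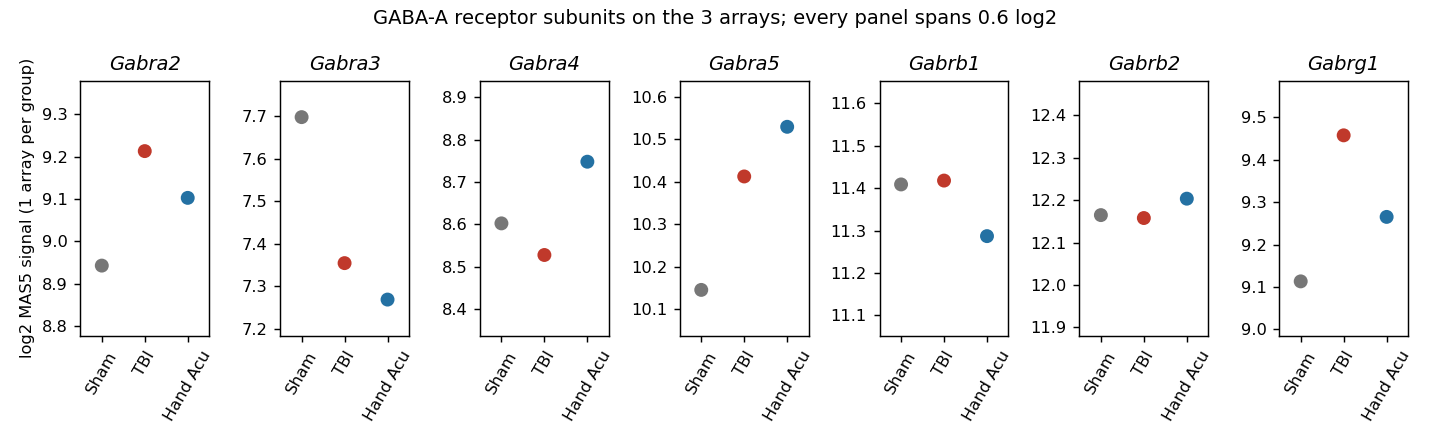
Log2 MAS5 signal of each subunit gene on the Sham, TBI and Hand Acu arrays, 1 array per group, each point being 1 array. All panels span the same height, so that the steps can be compared between genes but the levels cannot: Gabrg1, Gabra2 and Gabra5 are lowest on the Sham array, Gabra3 is highest there, and Gabrb2 is nearly level.

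The first comparison, of TBI with Sham, bears on injury at 1 h, but differences between the tissue pools and arrays enter it and could not be told apart from injury. No subunit of the 7 differed by 1.5-fold in either direction, beside 1.55% of all genes above the floor. At 1.2-fold, Gabrg1, Gabra2 and Gabra5 were higher, beside 7.68% of all genes, and Gabra3 was lower, beside 8.15%. The differences ran from −0.34 in Gabra3 to 0.34 in Gabrg1, with 4 higher and 3 lower, where 51.0% of all genes above the floor were higher. The median over the 6 subunits above the floor was 0.14, beside 0.0043 over all genes, and with Gabra3 it was 0.0091. The median of the group thus depended on which side of the floor Gabra3 was put.

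The comparison of Hand Acu with TBI would bear on acupuncture without injury if both groups were injured, which the labels do not say. Even then, differences between the 2 tissue pools and arrays would enter it and could not be told apart from acupuncture. Here the subunits lay closest together, and none of the 7 was 1.5-fold apart, beside 1.21% of all genes above the floor, nor 1.2-fold apart, beside 12.9%. Gabra4 was the highest at 0.22 and Gabrg1 the lowest at −0.19. Gabra5 was higher by 0.12 and Gabrb2 by 0.05, while Gabra2 differed by −0.11, Gabrb1 by −0.13 and Gabra3 by −0.09. Of the 7, 3 were higher and 4 lower, where 49.3% of all genes above the floor were higher, and the median over the 6 above the floor was −0.03, beside −0.0024 over all genes. Both Gabrg1 and Gabra2, which were higher on the TBI array than on the Sham array, stood nearer to the Sham level on the Hand Acu array, and Gabra5 stood farther from it. What is peculiar to the TBI array enters this comparison and TBI against Sham with opposite signs. In their deciles of mean signal, 24.8% of genes were at least as far apart between Hand Acu and TBI as Gabrg1, and 54.3% as Gabra2.

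Hand Acu against Sham again gave no subunit 1.5-fold apart, beside 1.89% of all genes above the floor. At 1.2-fold Gabra5 was higher, beside 8.16% of all genes, and Gabra3 was lower, beside 8.39%. Of the 7, 5 were higher and 2 lower, where 51.0% of all genes above the floor were higher, with a median over the 6 above the floor of 0.15, beside 0.0037 over all genes. Gabra2, Gabrg1 and Gabra4 were higher by 0.16, 0.15 and 0.15. This comparison and TBI against Sham have the Sham array in common, and what is peculiar to that array enters both.

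**Figure D2:**
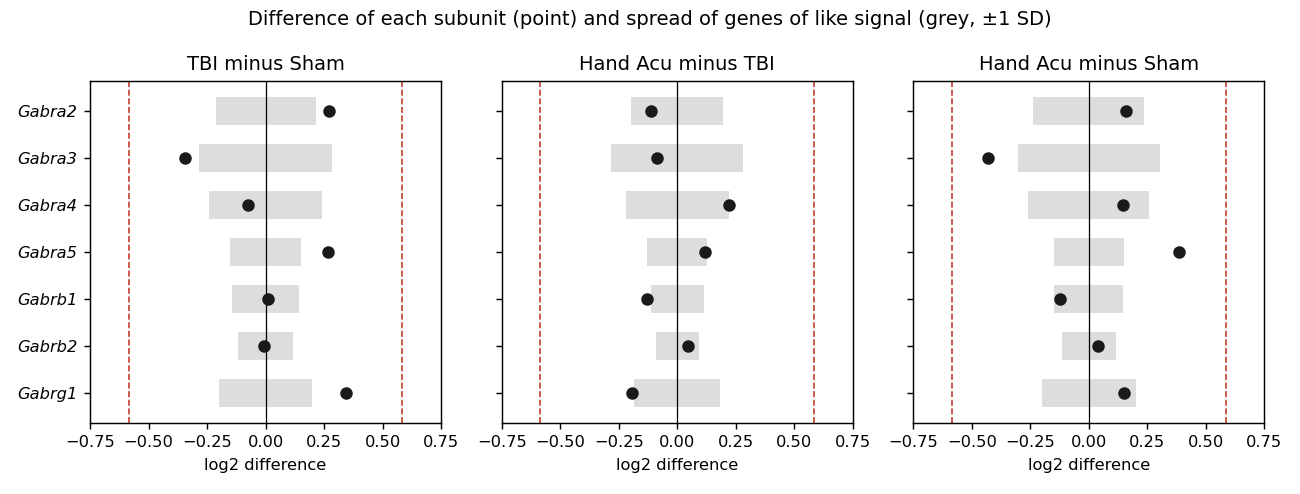
Log2 difference of each subunit gene in the 3 comparisons (points), with grey bars for ±1 SD of the difference over all genes in the same decile of mean signal and dashed lines at 1.5-fold. No point reaches a dashed line, and Gabra5 in Hand Acu minus Sham (0.38 against an SD of 0.15) lies farthest outside its grey bar.

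The order of arrays differed among the 7 genes. The TBI array was highest for Gabra2, Gabrb1 and Gabrg1, the Hand Acu array for Gabra4, Gabra5 and Gabrb2, and the Sham array for Gabra3. Setting each gene's 3 values against their own mean, Gabra2 and Gabrg1 were the closest pair, with a largest gap of 0.05 on any array, and Gabra3 and Gabra5 the farthest, with 0.48. With 3 arrays such closeness is common and is no sign of a link. For Gabra3, the subunit with the widest range over the arrays, the 3 genes above the floor with the most similar centred values were Stx3, Fen1 and Git2, with largest gaps of 0.0029, 0.0063 and 0.0069, and 318 genes were within 0.1.

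The genes of the family stand in clusters on the chromosomes, and neighbours in a cluster differed between the arrays to different extents. In the RefSeq table of GRCr8, where all 7 were found by gene identifier, Gabrb1, Gabra4, Gabra2 and Gabrg1 follow each other on chromosome 14, with 1 further protein-coding gene between Gabra4 and Gabra2. TBI minus Sham along that row was 0.0091, −0.07, 0.27 and 0.34. The pair Gabra2 and Gabrg1 was thus higher on the TBI array, while the pair Gabrb1 and Gabra4 was not. On chromosome 10 Gabrb2 stands next to Gabra6 with no protein-coding gene between them, and TBI minus Sham was −0.0069 in Gabrb2 and −0.62 in Gabra6. Gabra5 lies on chromosome 1 next to Gabrg3. Gabra3 lies on chromosome X between Gabre and Gabrq.

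Among the other subunits of the family, those of granule cells were lower on the TBI and Hand Acu arrays by more than any of the 7 genes described, in their brightest probe sets. Of 9 further subunit genes described here, 2, Gabra6 and Gabrd, were above the floor. Gabra6 read 12.38, 11.76 and 11.69 on the Sham, TBI and Hand Acu arrays, and its second probe set 11.11, 10.20 and 10.14. Both probe sets of Gabra6 were thus highest on the Sham array, and TBI minus Sham was −0.62 in the first and −0.91 in the second. Gabrd read 9.78, 9.28 and 9.18, and its second probe set 9.07, 8.75 and 9.03, so that the Hand Acu array was near TBI in the first probe set and close to Sham in the second. Gabrg3, Gabre, Gabrp, Gabrq, Gabrr1, Gabrr2 and Gabrr3 lay below the floor and their differences are not described.

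**Figure D3:**
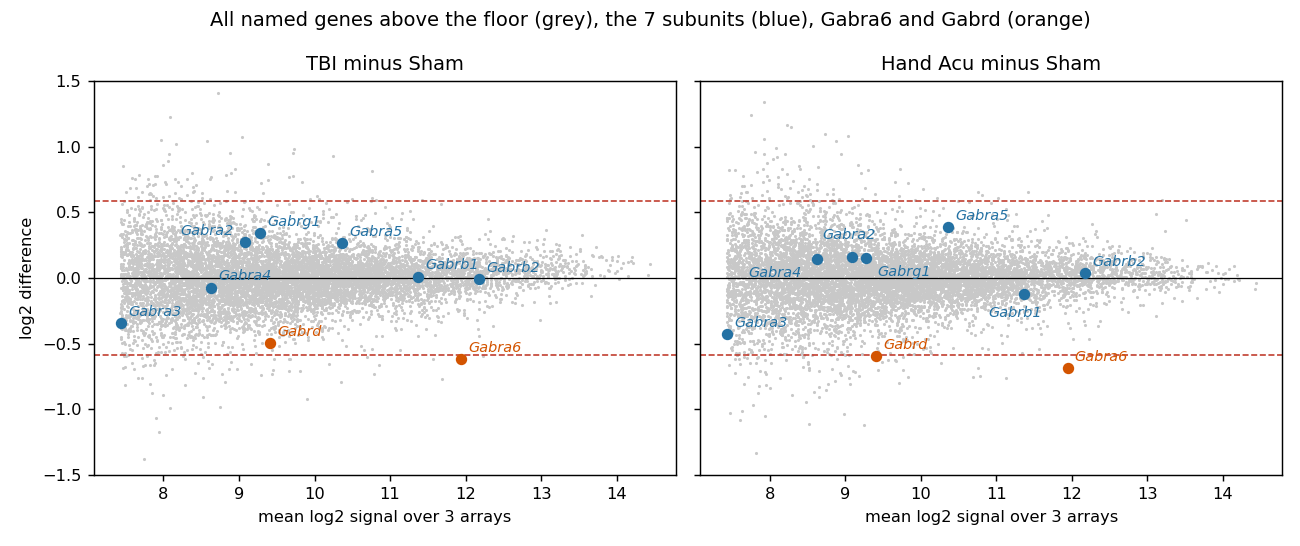
Log2 difference against mean log2 signal for all named genes above the floor and Gabra3 (grey), with the 7 subunits in blue, Gabra6 and Gabrd in orange and dashed lines at 1.5-fold, for TBI minus Sham (left) and Hand Acu minus Sham (right). The 7 subunits lie inside the dashed lines in both panels, while Gabra6 lies below the lower line in both.

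Markers of cell types were read beside the subunits, since in bulk tissue fewer cells of a type and less RNA per cell cannot be told apart. Markers of cerebellar granule cells were lower on the TBI array than on the Sham array in 8 of 8 genes above the floor. Of all genes above the floor 49.0% were lower. The median of these markers was −0.49, and 3 differed by at least 1.5-fold, beside 1.55% of all genes above the floor. Their summed linear signal was 21584 for Sham, 14853 for TBI and 15135 for Hand Acu. Fat2, a protocadherin of granule cells, differed by −0.76 between TBI and Sham and Neurod1, a transcription factor, by −0.60. Purkinje cell markers were lower in 7 of 7, beside the same 49.0% of all genes, with a median of −0.36, Slc1a6 by −0.76. In the same comparison Gabrb2, which granule cells also make, differed by −0.0069. The part of the cerebellar share of the tissue in the differences of the 7 subunits was not tested.

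Markers of forebrain neurons went the other way for TBI minus Sham, with a median of 0.30. On the TBI array 6 of 8 were higher than on the Sham array, beside 51.0% of all genes above the floor. Adora2a, the adenosine receptor of striatal neurons, was 0.75 higher and Ppp1r1b, the gene of DARPP-32, 0.60 higher, while Neurod2 differed by −0.56. Their summed signal was 6631, 8040 and 8020 on the Sham, TBI and Hand Acu arrays. Markers of caudal brainstem and spinal neurons were above the floor in 4 of the 9 named genes. All 4 were higher on the TBI array than on the Sham array, where 51.0% of all genes above the floor were higher. Among them were Hoxa5, a patterning gene expressed caudally in the hindbrain, by 1.22 and Slc6a4, the serotonin transporter, by 0.48. The summed signal of the 4 was 1596, 2111 and 1968. The genes of this list below the floor were mixed for TBI minus Sham in their brightest probe sets. Glra1 differed by −0.34 and Slc6a5 by −0.12, while Hoxb6 differed by 0.68, Dbh by 0.62 and Hoxc4 by 0.46. Of the transcripts that define brainstem glycine and noradrenaline neurons, Slc6a5 read from 2.11 to 3.14 in log2 signal and Dbh from 5.64 to 6.37, both below the floor on all 3 arrays. Gabra2, Gabra5 and Gabrg1 thus had their lowest value on the array where the summed signal of forebrain and of caudal brainstem markers was lowest and that of cerebellar markers highest. This was not particular to regional markers. On the Sham, TBI and Hand Acu arrays general neuron markers summed to 69759, 72998 and 72372, and oligodendrocyte markers to 63886, 66417 and 66128, both lowest on Sham. Astrocyte and Bergmann glia markers were lowest on the Hand Acu array. Among single forebrain markers Neurod2 and Neurod6 were instead highest on the Sham array, and Rgs9 was lowest on the Hand Acu array. The part of these markers in the differences of the subunits was not tested.

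In the comparisons with Sham, markers of glia and of neurons in general had smaller median differences than the marker lists above. Astrocyte and Bergmann glia markers had a median of 0.08 for TBI minus Sham and of −0.12 for Hand Acu minus TBI. The latter was the largest in size of any marker list in that comparison. In the first 8 of 12 were higher, beside 51.0% of all genes above the floor. In the second 9 of 12 were lower, beside 50.7%. Gabrg1, which Bergmann glia also make, had the same signs as these medians in both comparisons, at 0.34 and −0.19. The medians of forebrain, caudal brainstem, general neuron and oligodendrocyte markers had these signs as well, so the match is not particular to glia. Those of granule cell and Purkinje cell markers did not. Gdf10, a marker of Bergmann glia, differed by −0.34 for TBI minus Sham, opposite to Gabrg1, and by −0.26 for Hand Acu minus TBI, with the sign of Gabrg1. For Hand Acu minus Sham it differed by −0.61, past 1.5-fold, where Gabrg1 was 0.15 higher. Neuron markers had a median of 0.07 and oligodendrocyte markers of 0.07 for TBI minus Sham.

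**Figure D4:**
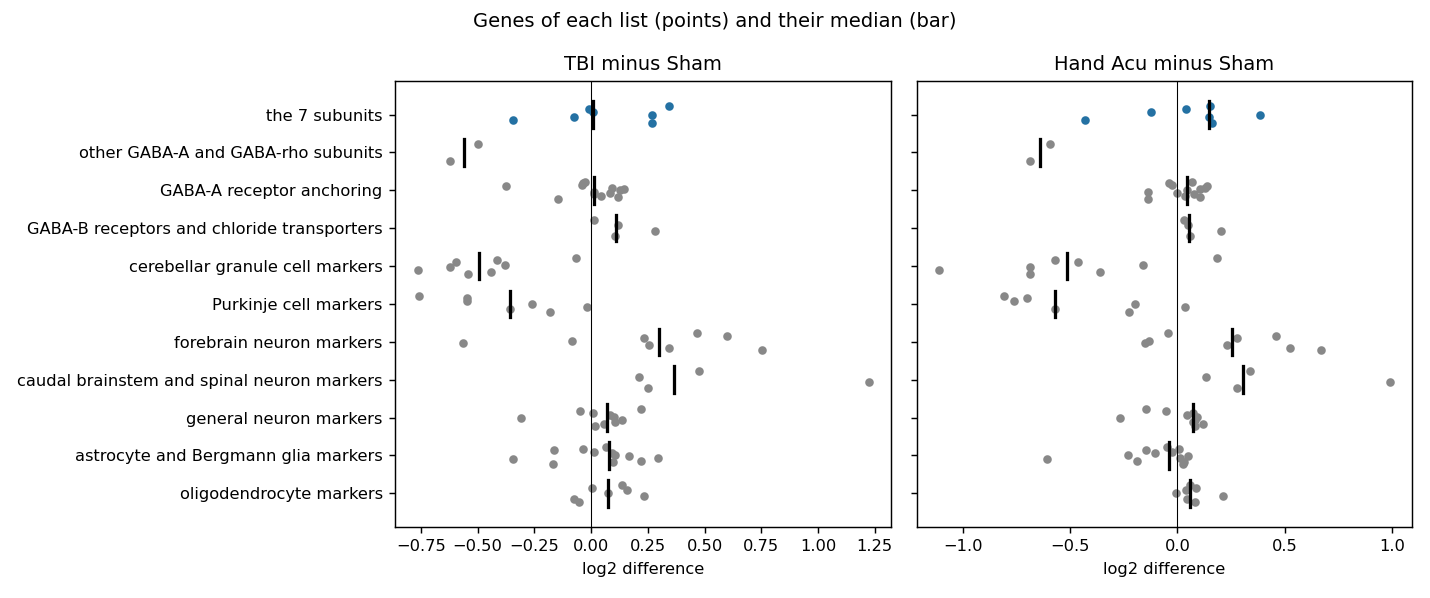
Log2 differences of single genes (points) with the median of each list (bar) for TBI minus Sham (left) and Hand Acu minus Sham (right). Genes of a list are shown if above the floor, and Gabra3 is shown with the 7 subunits, whose medians here are 0.0091 and 0.15, beside −0.49 and −0.52 for granule cell markers and 0.30 and 0.26 for forebrain markers.

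Genes that anchor, assemble and move GABA-A receptors were read as well. Of 18 such genes 13 were above the floor. On the TBI array 8 were higher and 5 lower than on the Sham array, where 51.0% of all genes above the floor were higher. Their median was 0.01, beside 0.0043 over all genes, and none was 1.5-fold apart, beside 1.55% of all genes. These counts do not set the list apart from genes at large. Gphn, which encodes gephyrin, the scaffold under inhibitory synapses, read 10.93, 10.94 and 11.01 on the Sham, TBI and Hand Acu arrays. Shisa7, an auxiliary subunit of the receptor, had the largest differences of the list, with −0.37 for TBI minus Sham and 0.51 for Hand Acu minus TBI. It read 8.51, 8.14 and 8.65, so that the TBI array was lowest, as for Gabra4. Clptm1, which holds subunits back in the endoplasmic reticulum, differed by −0.15 and Plcl1, a partner of beta subunits, by 0.14 for TBI minus Sham.

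The metabotropic GABA receptor genes and the chloride transporters that set the direction of GABA currents were higher on the TBI array than on the Sham array in the brightest probe set of 4 of 4, by at most 0.28 in Gabbr2, where 51.0% of all genes above the floor were higher. Gabbr1 had no single direction: it was higher by 0.11 in its brightest probe set and differed by −0.08 and −0.02 in its other probe sets above the floor. Gabbr2 read 11.18, 11.46 and 11.38 on the Sham, TBI and Hand Acu arrays, an order like that of Gabra2 and Gabrg1. Its second probe set, below the floor, had the same order with 6.47, 7.06 and 6.77. Slc12a5, the neuronal chloride exporter KCC2, read 12.76, 12.77 and 12.78 and was level over the arrays. Slc12a2, the importer NKCC1, was higher by 0.12 for TBI minus Sham and by 0.05 for Hand Acu minus Sham. None of the 4 genes was 1.5-fold apart in any comparison. Of all genes above the floor 1.55% were for TBI minus Sham, 1.21% for Hand Acu minus TBI and 1.89% for Hand Acu minus Sham.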

How the data were processed

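Brainstem RNA of 3 groups was measured on 1 Affymetrix array each. The authors deposited log2 signals, and MAS5, which turns a probe set's matched and mismatched probes into 1 signal, is the tool listed, without a version, per the submitters' processing notes. The log base and scaling were read from the values: all 3 arrays had a linear mean of 500.0 after the outer 2% at either end was trimmed. Because MAS5 subtracts mismatch signal, dim values vary most.

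Of 31099 probe sets, 57 controls, 436 with several symbols and 9780 without a symbol in the platform annotation were left out, which left 20826. Each gene was read from its brightest probe set. Log2 differences were taken as deposited, with no test. Named genes were all 7 subunits, up to 3 genes with the largest differences per list, and genes named beside them after their values were seen. The subunits and lists were chosen with earlier results of these data known. Alternatives were quantile normalization, median centring, an offset of 50, other probe sets, other floors and other folds. Python 3.11.15, numpy 2.4.6, pandas 2.3.3, scipy 1.17.1 and matplotlib 3.10.9 were used. The code of the fold count was run on simulated data with planted changes larger than any difference of the 7 subunits. That run does not speak to changes of the size described here. Promoter sequence and gene order came from RefSeq tables of GRCr8. No genome was used here.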

Additional observations from a re-analysis of the deposited data

How the results depend on the processing

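With 1 array per group, no replicate could be left out. No paired analysis was possible because each group has 1 sample. The directions of single subunits kept their sign under quantile normalization, median centring and the offset of 50. The median for TBI minus Sham was 0.14; it was 0.0091 with no floor, which adds Gabra3, and 0.27 when Gabrb2 was read from its dimmer probe set, which lies below the floor and so drops the gene. Leaving out 1 subunit at a time gave from 0.0091 to 0.27: without Gabra2, Gabra5 or Gabrg1 it was 0.0091, and without Gabra4, Gabrb1 or Gabrb2 it was 0.27. Leaving out 1 subunit gave 0.15 throughout for Hand Acu minus Sham and −0.11 to 0.05 for Hand Acu minus TBI. With the higher floor of 9.25, which left 4 subunits, the medians were 0.14 for TBI minus Sham, −0.04 for Hand Acu minus TBI and 0.10 for Hand Acu minus Sham. At 1.2-fold in place of 1.5-fold the subunits counted above the floor were 3 for TBI minus Sham and 1 for Hand Acu minus Sham, where the main count was 0. Of 69 alternative values of single subunits 67 moved by less than 0.1, and the other 2 were those of the dimmer Gabrb2 probe set. The dimness of Gabra3 and the single probe set of 6 of the 7 genes limit what can be read from them.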
